A study of Mus musculus with 9 samples.

Results

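The genes described here are 33 genes of the endoplasmic reticulum (ER) chaperone system and the unfolded protein response (UPR), out of 49548 genes in the deposited tables. They were chosen by name for their known roles: 9 chaperones and co-chaperones of the ER lumen, 6 lectin chaperones and protein disulfide isomerases (PDIs), 5 stress sensors and transcription factors, 6 genes of the PERK-ATF4-CHOP arm, and 7 genes of ER-associated degradation (ERAD) and the translocon. No measured value entered the choice, although earlier results of these data were known when it was made. All 33 were found by symbol and identifier.

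RNA was sequenced from cultured synovial fibroblasts (SFs), the stromal cells that line the joint, taken from ankle joints of 8-week-old mice on a CBA C57BL/6J background. The study set the transcriptome of arthritic SFs against healthy SFs and asked how blocking TNF changes it. The groups were 3 libraries of wild-type (WT) SFs with no treatment, 3 of SFs from hTNFtg mice, which carry a human TNF transgene and develop arthritis, with no treatment, and 3 of hTNFtg SFs given infliximab, an antibody against human TNF, at 1 µg/mL for 48 h. The study's methods call these biological replicates and describe vehicle where the labels say no treatment. In all groups CD45+ cells had been depleted at passage 1. Infliximab was given to hTNFtg SFs alone, so its effect without the transgene was not measured.

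The ER is where secreted and membrane proteins fold, and fibroblasts, which export large amounts of collagen, load it heavily. When unfolded proteins accumulate, the sensors IRE1 (Ern1), PERK (Eif2ak3) and ATF6 start separate arms. IRE1 splices Xbp1 mRNA, ATF6 is cleaved into a transcription factor, and both raise chaperone and ERAD genes through the ER stress response element (ERSE), whereas PERK slows translation and lets ATF4 be made, which induces CHOP (Ddit3) and amino acid genes. Much of this signaling runs through splicing, cleavage, phosphorylation and translation, which counts of reads per gene do not show. Here the transcripts of sensors and targets were measured, and Xbp1 splicing was not.

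The sequences below show where the ERSE stands in member promoters, since it is the element through which chaperone genes are known to answer ER stress. Promoters were taken from RefSeq (build GRCm38.p6), 250 bases before to 50 bases after each start, for the 29 members matched by symbol. Manf, Hyou1, Derl1 and Atf6 were not matched. The ERSE, that is the letters CCAAT, then 9 bases of any kind, then CCACG, was searched on both strands. It was found in 9 of 29 member promoters (31%) and in 39 of 32851 promoters of all genes (0.119%). The members were chosen for known roles in this response, so a higher share of ER stress elements among them was built into the choice. Capitals mark the fixed letters of the element, and Hsp90b1 holds it at 2 places:
Calr (chr8:84847075-84847093, plus strand, outer edge 162 bases before the start): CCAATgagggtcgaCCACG
Canx (chr11:50325800-50325818, minus strand, outer edge 145 bases before the start): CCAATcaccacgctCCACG
Creld2 (chr15:88819520-88819538, minus strand, outer edge 126 bases before the start): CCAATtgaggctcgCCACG
Derl3 (chr10:75893242-75893260, minus strand, outer edge 156 bases before the start): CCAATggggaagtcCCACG
Dnajc3 (chr14:118937827-118937845, plus strand, outer edge 105 bases before the start): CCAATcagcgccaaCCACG
Hsp90b1 (chr10:86705533-86705551, plus strand, outer edge 107 bases before the start): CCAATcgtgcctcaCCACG
Hsp90b1 (chr10:86705638-86705656, minus strand, outer edge 212 bases before the start): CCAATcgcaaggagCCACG
Hspa5 (chr2:34772025-34772043, plus strand, outer edge 65 bases before the start): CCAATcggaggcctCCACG
Pdia6 (chr12:17266491-17266509, plus strand, outer edge 98 bases before the start): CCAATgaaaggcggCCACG
Syvn1 (chr19:6046532-6046550, plus strand, outer edge 44 bases before the start): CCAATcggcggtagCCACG

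The element stands closest to the start in Syvn1 and Hspa5. The promoter of Hspa5, the gene of the chaperone BiP, is the textbook example, and it is given here up to the base before its RefSeq start with the ERSE letters in capitals:
Hspa5 (chr2:34771840-34772089, plus strand): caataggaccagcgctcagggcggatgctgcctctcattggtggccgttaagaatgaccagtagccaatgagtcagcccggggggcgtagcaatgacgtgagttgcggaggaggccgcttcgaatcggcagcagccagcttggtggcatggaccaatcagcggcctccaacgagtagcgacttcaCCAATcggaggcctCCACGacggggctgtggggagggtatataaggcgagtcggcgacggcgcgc

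Another form, ERSE-II, the letters ATTGG, then 1 base of any kind, then CCACG, was in 2 of 29 member promoters (6.9%) against 0.0365% of all promoters:
Dnajb11 (chr16:22857852-22857862, plus strand): ATTGGcCCACG
Herpud1 (chr8:94386377-94386387, plus strand): ATTGGgCCACG
The letters CCACG alone, which by construction lie inside both forms, were in 23 of 29 member promoters (79.3%) and in 32.8% of all promoters. The ATF4-type C/EBP-ATF element TGATGNAAN was in the promoters of Asns, Chac1, Herpud1 and Trib3 (13.8% of members, 3.95% of all), and TTGCATCA, whose reverse complement the former can contain, in Chac1 and Herpud1 (6.9% against 0.895%). The cAMP response element core TGACGTCA was in Ppp1r15a (3.45% against 1.79%). The UPR element TGACGTGG, which overlaps the CCACG letters on its other strand, was in 0 of 29 and in 0.676% of all promoters. A match describes letters in a window and shows no binding.

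The values are counts per gene that the authors scaled between libraries and rounded, called normalized counts here. In 3′ mRNA sequencing a read marks the end of a transcript, so a normalized count does not grow with gene length and is compared between genes on that scale. By the steps between values, hTNFtg replicate 1 held about 613343 reads on genes and the other 8 libraries 3829161 to 9012189, 6.24 to 14.7 times as many. In that library 1 read is worth 6.228 normalized counts, and 16009 genes were above 0 against 20384 to 22699 elsewhere. All 12 fibroblast markers, among them Col1a1, Pdgfra and Thy1, had a mean of at least 10, and they summed to 44682 to 61402 normalized counts in each library. The 12 leukocyte and macrophage markers summed to 197 to 651 in WT, 3012 to 7273 in hTNFtg and 1889 to 3787 in infliximab-treated SFs, with 10 of 12 higher in every hTNFtg than in every WT library and none at 0 throughout. The 7 chondrocyte markers, which Sox9 dominated, summed to 1264 to 2086, 227 to 366 and 337 to 720. The 9 hepatocyte markers summed to 1045 in infliximab replicate 3 and to 20 to 67 in the other libraries. The 7 endothelial markers summed to at most 12, and Tie1 was at 0. The part of these differences in the results on the members was not tested. In bulk RNA, fewer cells of a type and less RNA per cell cannot be told apart.

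For 4 members the deposited counts could not be assigned to the member alone. Each lies tail to tail with a gene on the opposite strand, and the 3′ ends overlap. The normalized counts of the pair moved in a near-constant ratio across the 9 libraries. A ratio is called near-constant here where its highest value was within 1.3 times its lowest. Ddit3, the CHOP gene, overlaps Mars, a methionyl-tRNA synthetase gene, over 68 bases (chr10:127296221-127296288 in mm10, the build of the deposited coordinates). Ddit3 stood at 593, 808 and 742 normalized counts in WT, 311, 601 and 865 in hTNFtg and 523, 662 and 529 in infliximab-treated SFs. Mars stood at 592, 807 and 741, then 311, 599 and 865, then 521, 659 and 525, between 0.992 and 1.00 times the value of Ddit3. Pdia6 and Atp6v1c2 (50 bases, chr12:17284721-17284770) had ratios of 0.99 to 1.01. Syvn1 and Mrpl49 (83 bases, chr19:6053630-6053712) had ratios of 1.03 to 1.24, and Tulp2 stood at 1.96 to 2.02 times Ppp1r15a (717 bases, chr7:45522916-45523632). Whether reads were counted by strand is not given in the sources used here. Which gene of a pair the reads came from cannot be told apart, so values of Ddit3, Pdia6, Syvn1 and Ppp1r15a are values of a locus. They enter the counts and medians by role as such. The other 29 members either had no overlapping gene or one whose values did not follow theirs.

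**Figure D1:**
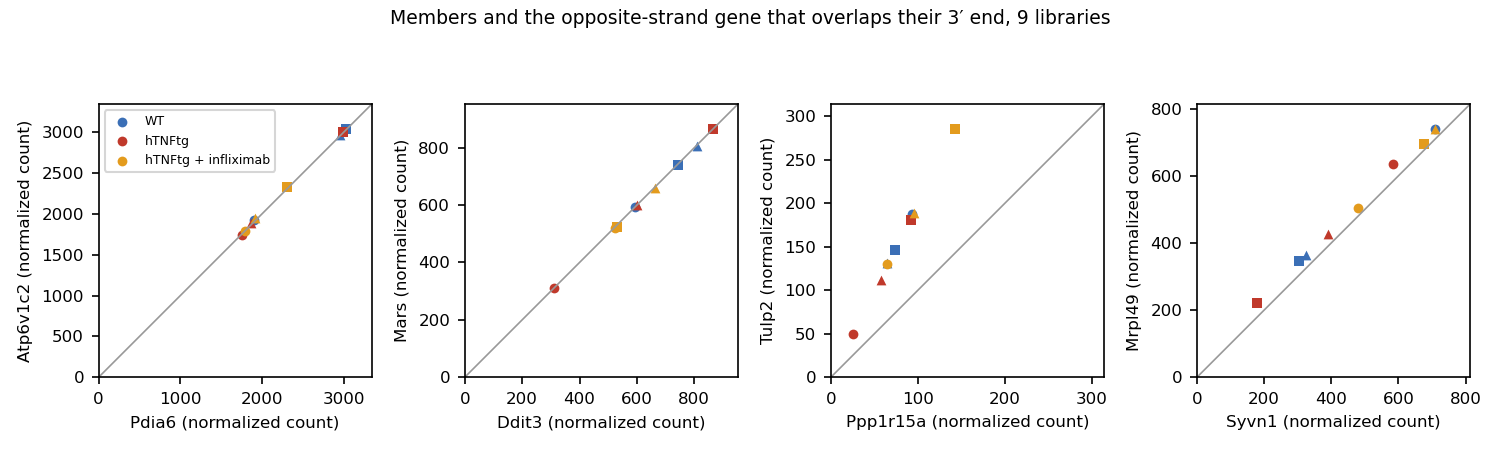
Normalized counts of 4 members (horizontal axes) against the opposite-strand gene that overlaps their 3′ end (vertical axes) in 9 libraries, colored by group, with circles, triangles and squares for replicates 1, 2 and 3 and a line of equal values. Pdia6 lies on or close to the line on both sides, Ddit3 on or just below it and Syvn1 above it, and Tulp2 lies at 1.96 to 2.02 times Ppp1r15a.

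The 33 members together took a similar share of every library, 0.88% to 1.07% of its normalized counts, and Hspa5 alone took 0.324% to 0.486%. The lumen chaperones took 0.424% to 0.587% and the lectin chaperones and PDIs 0.217% to 0.303%. Shares of the other roles ranged more widely. They were 0.0491% to 0.111% for sensors and factors, 0.0191% to 0.0394% for the PERK-ATF4-CHOP arm and 0.0582% to 0.102% for ERAD and translocon genes. By role, the lumen chaperones summed to 17724 to 26255 normalized counts per library, the lectin chaperones and PDIs to 8301 to 13803, the sensors and factors to 1874 to 4815, ERAD and translocon genes to 2803 to 4334, and the PERK-ATF4-CHOP arm to 728 to 1756. Within the members the mean levels ran from Hspa5 through P4hb, Calr, Atf4, Hsp90b1 and Pdia6 down to Creld2, Pdia4 and Derl3. Derl3, a gene of the Derlin family, was at 0 or 1 in every library, so its fold is not given and it is left out of the counts and medians by role. Counts and medians over 33 members include it. Of the other 32 members, 10 varied by less than 2-fold between the highest and lowest of the 9 libraries and 5 (Trib3, Manf, Ppp1r15a, Pdia4 and Sesn2) by more than 4-fold. The median was 2.21-fold.

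**Figure D2:**
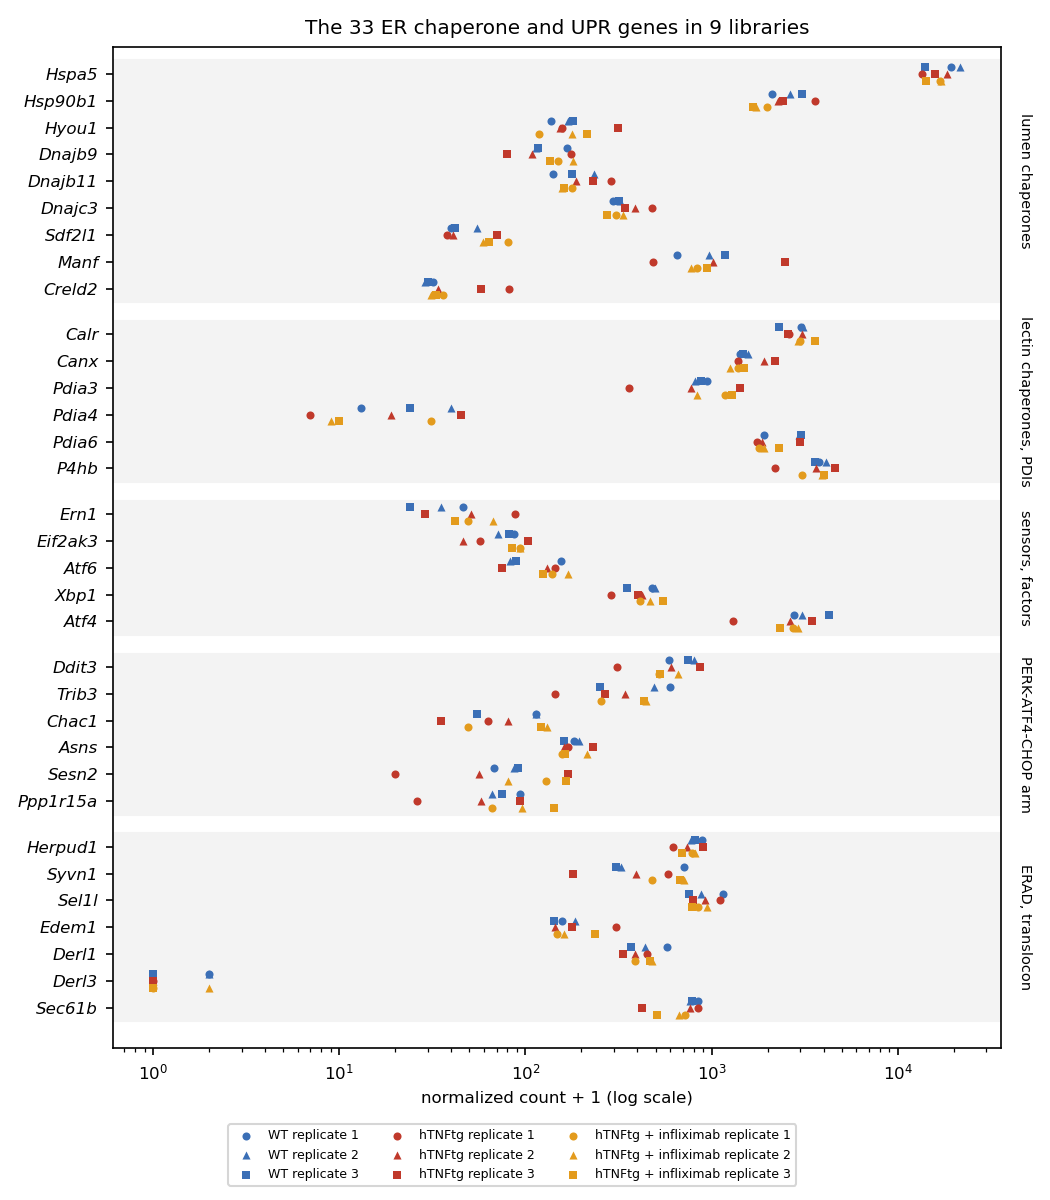
Normalized count plus 1 (logarithmic horizontal axis) of the 33 members by role, with color for the group and circles, triangles and squares for replicates 1, 2 and 3. Levels span 4 orders of magnitude between Derl3 and Hspa5, and for most members the 3 groups lie over one another.

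In hTNFtg compared with WT SFs the members lay on both sides of 0, and in some roles the majority changed side with single libraries. Without hTNFtg replicate 1, 5 of 6 lectin chaperones and PDIs were above 0, in place of 1 of 6. Without hTNFtg replicate 3, 4 of 6 ERAD and translocon genes other than Derl3 were above 0, in place of 2 of 6. Most lumen chaperones stayed above 0 and most sensors and factors below it, whichever library was left out. With all libraries 7 of 9 lumen chaperones were above 0 and 5 of 6 genes of the PERK-ATF4-CHOP arm below it. Without the shallow hTNFtg replicate 1 these counts were 6 of 9 and 3 of 6. No chaperone, sensor or target gene passed the test, and for Hspa5, Xbp1, Atf4 and Ddit3, the usual reporters of the response, the groups overlapped. The calling rule, taken from the study's methods, asked for an unadjusted P under 0.05 and for a change of 2-fold or more in either direction. limma called 0 of 33 members by this rule, where it called 6.39% of the 28522 genes tested (3.35% as higher and 3.04% as lower), and 0 of 33 had a Benjamini-Hochberg adjusted p under 0.05, where 0.48% of genes did. At an unadjusted P under 0.05 the count was 0 of 33 (7.72% of genes), and with edgeR (quasi-likelihood test, approximate reads) it was 1 (Trib3, 10% of genes). edgeR called 0 members by the rule, where it called 8.46% of genes, and 0 by adjusted p, where it called 922 genes. The median log2 fold change of the members was -0.19, and -0.02 without hTNFtg replicate 1 (-0.01 without Derl3 as well), beside -0.07 over the 13634 genes with a mean of at least 10. Their log2 fold changes ran from -0.83 to 0.85, and limma's adjusted p was 0.693 or more.

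Among the chaperones of the ER lumen, Hspa5 (chr2:34771970-34777547), the master chaperone BiP that also holds the sensors inactive, was the most abundant member. Its normalized counts were 19390, 21724 and 14058 in WT, 13534, 18454 and 15881 in hTNFtg and 16931, 17168 and 14231 in infliximab-treated SFs. The highest WT library was 1.6 times the lowest hTNFtg library, and the 3 groups overlapped. The log2 fold change of Hspa5 in hTNFtg versus WT was -0.19 (SE 0.61, 95% interval -1.53 to 1.15, limma adjusted p = 0.921) and 0.12 with quantile normalization. This interval is wider than the libraries' own spread (SD of log2 values 0.326 in WT and 0.224 in hTNFtg), since limma draws the variance of a gene towards that of genes at a similar level.

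Hsp90b1 (chr10:86690209-86705509), which encodes GRP94, the HSP90 of the ER, was at 2103, 2650 and 3058 in WT and at 3581, 2266 and 2434 in hTNFtg SFs. These groups overlapped, with a log2 fold change of 0.07 (SE 0.38, limma adjusted p = 0.965). Among the lumen chaperones 7 of 9 had a log2 fold change above 0, with a median of 0.25, and none passed the test. The count was 5 of 9 without WT replicate 1 (median 0.01) and without hTNFtg replicate 3 (0.08).

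The 2 members whose groups did not overlap were both in this group, Dnajc3 and Creld2, higher in every hTNFtg than in every WT library. They are singled out here after their values were seen. As background, 5.63% of genes did not overlap in that direction, 5.8% in the other, where the members counted 0, and 11.4% in either. Dnajc3 (chr14:118937932-118981702), the co-chaperone p58IPK, stood at 295, 320 and 316 in WT, 480, 386 and 340 in hTNFtg and 305, 335 and 275 in infliximab-treated SFs. Its log2 fold change in hTNFtg versus WT was 0.36 (SE 0.28, limma adjusted p = 0.726). Creld2 (chr15:88819646-88826681), an ER-resident protein, stood at 31, 28 and 29 in WT and 81, 33 and 57 in hTNFtg SFs, and at 35, 30 and 32 after infliximab. WT values lay within 3 normalized counts of each other, whereas in hTNFtg SFs replicate 1 was 81, which is 13 reads. The log2 fold change of Creld2 was 0.85 (SE 0.44, limma adjusted p = 0.726) and 0.37 to 1.19 over the alternatives. The count of members without overlap was 4 (19.6% of genes) without hTNFtg replicate 1, 7 (16.7%) without WT replicate 3 and 10 (21.1%) without hTNFtg replicate 3.

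Manf (chr9:106838312-106891979), which encodes a secreted ER stress protein, is given for its spread and was likewise chosen after its values were seen. It stood at 648, 965 and 1177 in WT, 486, 1012 and 2494 in hTNFtg and 832, 773 and 947 in infliximab-treated SFs. The lowest and the highest of the 9 values were both in hTNFtg SFs. The log2 fold change of Manf of 0.25 (SE 0.52, limma adjusted p = 0.87) became 0.81 without hTNFtg replicate 1 and -0.36 without hTNFtg replicate 3. The other lumen chaperones, Hyou1, Dnajb9, Dnajb11 and Sdf2l1, had log2 fold changes between -0.18 and 0.36.

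The lectin chaperones and PDIs, which fold glycoproteins and form disulfide bonds, had log2 fold changes between -0.35 and 0.27. With all libraries 5 of 6 were below 0, with a median of -0.23. This rests on hTNFtg replicate 1, without which 5 of 6 were above 0 and the median was 0.18. Without hTNFtg replicate 3 it was -0.47, and without WT replicate 2 it was -0.06 with 3 of 6 below 0. P4hb (chr11:120560298-120573253), the PDI that is also a subunit of collagen prolyl 4-hydroxylase, was their most abundant gene. It was measured at 3797, 4108 and 3591 in WT, 2192, 3623 and 4615 in hTNFtg and 3073, 3932 and 4009 in infliximab-treated SFs. The hTNFtg values enclosed all WT values, and the log2 fold change was -0.20 (SE 0.42, limma adjusted p = 0.862). Calr and Canx, the lectins calreticulin and calnexin, had log2 fold changes of -0.03 and 0.27. Pdia4, at the lower end of the range, was low throughout and went from -1.01 without hTNFtg replicate 3 to 0.33 without hTNFtg replicate 1. Its 6 normalized counts in hTNFtg replicate 1 are 1 read (95% Poisson interval 0.158 to 34.7, counting error only).

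None of the sensors or factors separated the groups. Atf4 (chr15:80255184-80257540), the factor made when PERK slows translation, stood at 2778, 3058 and 4272 in WT, 1302, 2647 and 3449 in hTNFtg and 2723, 2925 and 2332 in infliximab-treated SFs. The hTNFtg replicate 1 value was the lowest of the 9, and the other hTNFtg values lay within or below the WT range. The log2 fold change of Atf4 was -0.54 (SE 0.44, limma adjusted p = 0.726), and -0.83 to -0.13 with single libraries left out. Xbp1 (chr11:5520659-5525893), the target of IRE1 splicing, stood at 477, 497 and 351 in WT, 286, 422 and 400 in hTNFtg and 414, 465 and 549 in infliximab-treated SFs. Its log2 fold change was -0.26 (SE 0.30, limma adjusted p = 0.726), and -0.42 to -0.09 with single libraries left out. The sensor genes Ern1, Eif2ak3 and Atf6 were transcribed at group means of 34.0 to 143 normalized counts, with log2 fold changes of 0.58, -0.30 and 0.10, the first from 0.19 to 0.99 with single libraries left out.

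In the PERK-ATF4-CHOP arm the median log2 fold change was -0.54, with 5 of 6 below 0 and none past the test. The 6 include the Ddit3 and Ppp1r15a loci, whose reads are shared with an overlapping gene. The 25 normalized counts of Ppp1r15a in hTNFtg replicate 1 are 4 reads. Without hTNFtg replicate 1 the median was -0.03 with 3 of 6 below 0, without hTNFtg replicate 3 it was -0.82 with 6 of 6 below 0, and by edgeR it was -0.30 with 4 of 6 below 0. The Ddit3 locus, with the values given above beside Mars, had a log2 fold change of -0.38 (SE 0.38, limma adjusted p = 0.726), which was 0.03 without hTNFtg replicate 1. Trib3 (chr2:152337422-152344032), a pseudokinase gene induced by ATF4 and CHOP, had the lowest log2 fold change of the members and was chosen for that. It stood at 597, 490 and 251 in WT and at 143, 340 and 266 in hTNFtg SFs, so that WT replicate 3 lay among the hTNFtg values, and at 255, 444 and 430 after infliximab. The log2 fold change of Trib3 was -0.83 (SE 0.41, limma adjusted p = 0.693). It met the calling rule without WT replicate 3 (-1.20) and without hTNFtg replicate 2 (-1.10), with an adjusted p of 0.415 to 0.831 over the alternatives. Creld2 met it without hTNFtg replicate 2 (1.19). In these fits the rule called 5.02% (without WT replicate 3) and 7.27% (without hTNFtg replicate 2) of all genes. Sesn2 (chr4:132492032-132510501), the sestrin 2 gene, met it without hTNFtg replicate 3 (-1.28, where 8.91% of all genes did) and had a log2 fold change of -0.50 (SE 0.62) with all libraries, 0.26 without hTNFtg replicate 1 and 0.09 by edgeR. Its values, also chosen after they were seen, were 67, 86 and 90 in WT, 19, 55 and 168 in hTNFtg and 128, 80 and 164 in infliximab-treated SFs. The value of 19 is 3 reads (95% Poisson interval 3.85 to 54.6 normalized counts). Asns, the asparagine synthetase gene and a direct ATF4 target, was at a log2 fold change of 0.04.

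Among ERAD and translocon genes without Derl3, 4 of 6 log2 fold changes were below 0, with a median of -0.19 and a range of -0.30 to 0.30, none past the test. The median was 0.04 without WT replicate 1 and 0.07 without hTNFtg replicate 3. Sel1l (chr12:91806043-91849157), the adaptor of the HRD1 ubiquitin ligase, was the most abundant at 1153, 877 and 753 in WT, 1109, 918 and 792 in hTNFtg and 845, 942 and 789 in infliximab-treated SFs. The hTNFtg values lay inside the WT range, with a log2 fold change of 0.03 (SE 0.31; limma adjusted p = 1). Syvn1 (chr19:6046576-6053712) encodes HRD1 itself, also known as synoviolin, after the synovial cells of rheumatoid arthritis in which it was described. Its locus stood at 708, 324 and 305 in WT and 585, 391 and 179 in hTNFtg SFs, and the groups overlapped. It is given in full after its values were seen. Its log2 fold change was -0.26 (SE 0.46, limma adjusted p = 0.842), and -0.64 to 0.21 with single libraries left out.

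**Figure D3:**
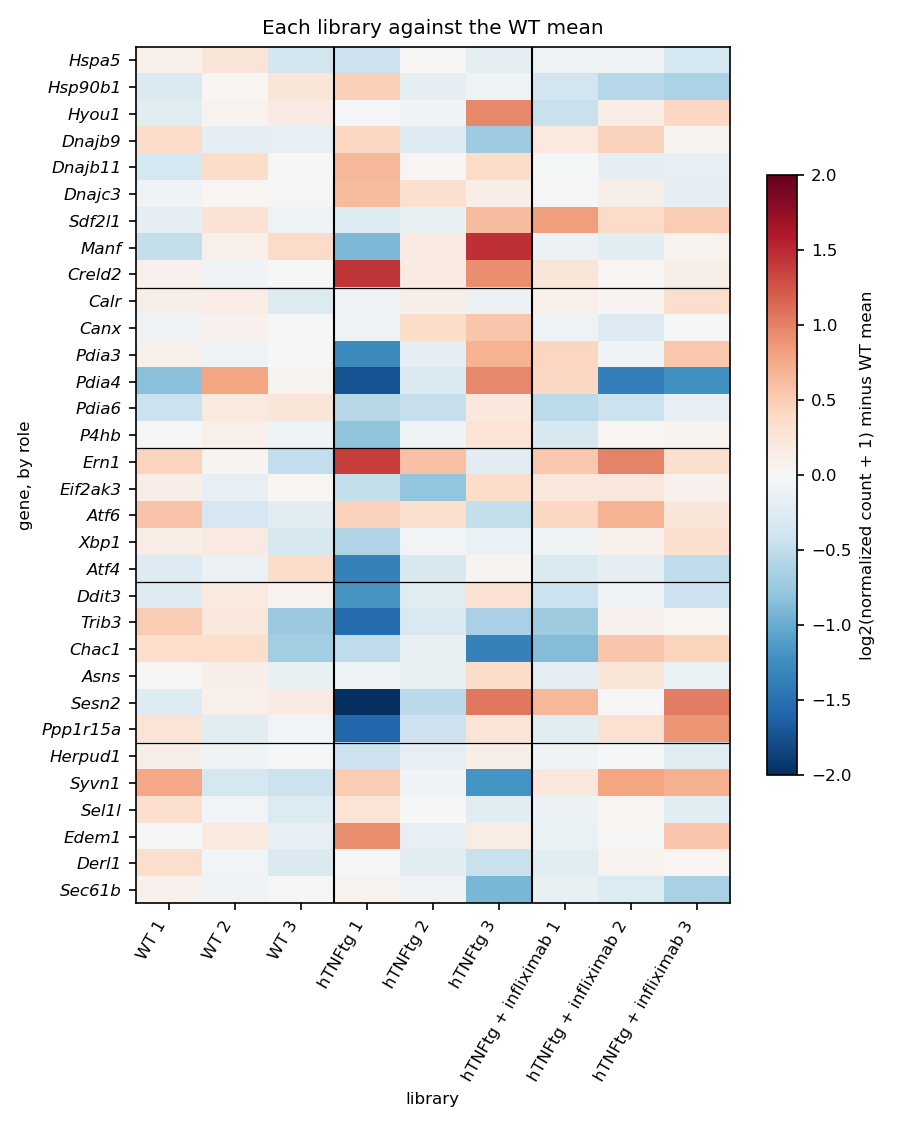
Log2 of the normalized count plus 1 minus the WT mean (color, limited to 2 in size) for 32 members in rows by role and 9 libraries in columns. Sesn2 and Manf are blue in hTNFtg replicate 1 and red in hTNFtg replicate 3.

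What set the hTNFtg libraries apart for these genes was their spread. The median SD of log2 values between replicates was 0.55 over 32 members in hTNFtg SFs, 0.27 in WT and 0.21 after infliximab. Over 13600 genes with a mean of at least 10 the medians were 0.57, 0.34 and 0.27, so the members had this in common with other genes. The SD was largest in hTNFtg SFs for 25 of 32 members (78.1%), beside 65.6% of genes. Replicates 1 and 3 lay farthest apart, with 11 of 32 members (34.4%) differing 2-fold or more, beside 46.2% of genes. Replicates 1 and 2 differed that much in 9 members (28.1%, beside 29.5% of genes) and replicates 2 and 3, without the shallow library, in 7 (21.9%, beside 23.7% of genes). Between any WT pair, and between any infliximab pair, it was 1 to 3 members, beside 9.02% to 18.6% and 7.51% to 11.4% of genes. In each of the 9 pairs the members' share lay below that of all genes. For 7 members (Ddit3, Herpud1, Manf, P4hb, Pdia3, Pdia4 and Sesn2) replicate 1 was the lowest and replicate 3 the highest of all 9 libraries (21.9%, beside 10.5% of genes), and the reverse held for 0 members (6.57% of genes). For 6 members (Creld2, Dnajc3, Dnajb11, Hsp90b1, Edem1 and Ern1) replicate 1 was the highest of the 9 libraries (18.8%, beside 22.7% of genes), and for 14 it was the lowest (43.8%, beside 30% of genes). No test was made of these patterns, which were seen in the data.

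**Figure D4:**
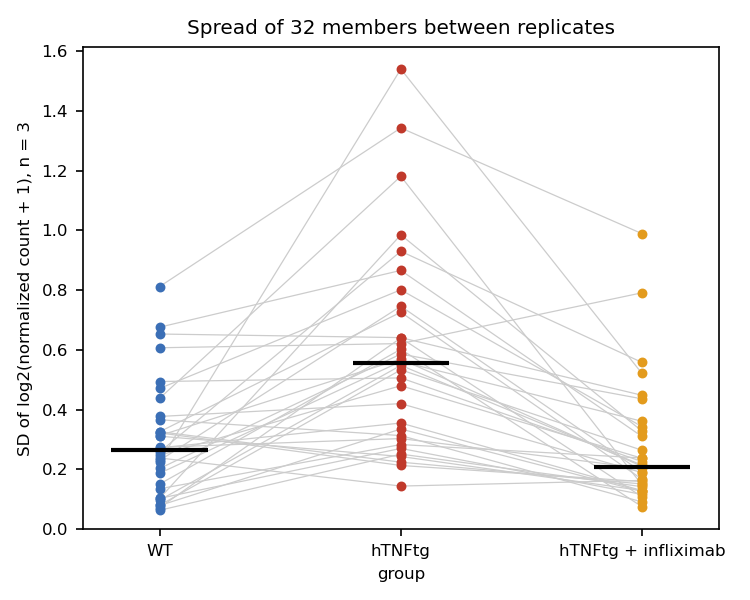
SD of log2(normalized count + 1) between the 3 replicates of each group (vertical axis) for 32 members, joined by lines, with black bars at the group medians. The medians are 0.27 in WT, 0.55 in hTNFtg and 0.21 in infliximab-treated SFs.

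Infliximab left the chaperone and UPR transcripts of hTNFtg SFs without a call in either direction. With all libraries the sensors and most genes of the PERK-ATF4-CHOP arm lay above the untreated level and 6 of 9 lumen chaperones below it, none past the test. Without hTNFtg replicate 3 the lumen chaperones had a median of 0.02, with 4 of 9 below 0, in place of -0.34. limma called 0 of 33 members by the rule (2.43% of 28540 genes, 1.49% as higher and 0.936% as lower) and 0 by adjusted p (0% of genes). At an unadjusted P under 0.05 it counted 0 (3.59% of genes). edgeR counted 2 at that level, Chac1 and Syvn1 (6.06% of genes), and limma with array quality weights, which weigh each library by its scatter, counted 7 (16.1% of genes). Both called 0 members by the rule, where edgeR called 4.31% and the weighted fit 7.51% of genes. By adjusted p both called 0 members, beside 165 and 65 genes in turn. The median log2 fold change was 0.06 (0.05 without Derl3), and -0.02 without infliximab replicate 2, beside 0.03 over genes with a mean of at least 10, and the range was -0.71 to 1.06. The untreated hTNFtg libraries are shared with the comparison against WT, so opposite signs in both comparisons are not independent.

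The groups did not overlap for Hsp90b1, Dnajb11 and Dnajc3, which were lower in every infliximab-treated than in every untreated library (3 of 33, beside 3.44% of genes). In the other direction the count was 0 (3.99% of genes), and the background in either was 7.44%. Hsp90b1 was at 1975, 1727 and 1666 after infliximab against a lowest untreated value of 2266, a log2 fold change of -0.60 (SE 0.35, limma adjusted p = 0.803). Dnajb11, the Hsp40 partner ERdj3 of BiP, had a log2 fold change of -0.48 (SE 0.28) and Dnajc3 one of -0.39 (SE 0.27), each with a limma adjusted p of 0.803. Without hTNFtg replicate 1 the count without overlap was 8 (18% of genes), without hTNFtg replicate 2 it was 6 (15.1%), without hTNFtg replicate 3 it was 9 (16.2%) and without infliximab replicate 1 it was 10 (12.1%). Creld2 had a log2 fold change of -0.71 (SE 0.43, limma adjusted p = 0.803), with treated values of 35, 30 and 32 close to those in WT. Hspa5 was at 0.02 (SE 0.61).

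With all libraries the 5 sensors and factors had log2 fold changes above 0, from 0.03 for Ern1 to 0.48 for Eif2ak3, with a median of 0.35. This did not hold for Atf4 without hTNFtg replicate 1 (-0.19) or for Ern1 without hTNFtg replicate 3 (-0.37), and 1 of 5 was below 0 without infliximab replicate 2 and with quantile normalization. Xbp1 was at 0.38 (SE 0.28) and Atf4 at 0.21 (SE 0.41). In the PERK-ATF4-CHOP arm 5 of 6 were above 0, with a median of 0.67. Without hTNFtg replicate 1 it was 4 of 6 with a median of 0.29 and the Ddit3 locus at -0.34, and over the other libraries left out the median was 0.48 to 0.95. Sesn2 was at 1.06 (SE 0.60, limma adjusted p = 0.803), the highest value with all libraries, and at 0.30 without hTNFtg replicate 1 and 1.84 without hTNFtg replicate 3. The Ppp1r15a locus, named for GADD34, the phosphatase subunit that restores translation, was at 0.90 (SE 0.47). Chac1, which degrades glutathione, was at 0.71 (SE 0.45), Trib3 at 0.63 (SE 0.36) and the Ddit3 locus at 0.06 (SE 0.36). With single libraries left out Ppp1r15a was at 0.40 to 1.32, Chac1 at 0.37 to 1.17 and Trib3 at 0.28 to 0.90. For Sesn2 and Ppp1r15a the untreated and treated groups overlapped. The Syvn1 locus, at 478, 710 and 675 after infliximab, had the smallest P of the members, 0.0541, with a log2 fold change of 0.83 (SE 0.39, limma adjusted p = 0.803). Its untreated replicate 1, at 585, lay among the treated values, and its log2 fold change was 0.35 to 1.21 with single libraries left out. P4hb was at 0.13 (SE 0.41) and Sel1l at -0.12 (SE 0.29).

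Calls appeared when single libraries were left out of this comparison, and they named different genes each time. Syvn1 met the rule without hTNFtg replicate 1 (1.21), Creld2 without hTNFtg replicate 2 (-1.05) and Chac1 without infliximab replicate 1 (1.17), which is 1 of 33 members (3.03%) each time, beside 4.99%, 3.94% and 2.08% of all genes in the same fits. Without hTNFtg replicate 3 it was met by Pdia3 (1.03), Sesn2 (1.84) and Ppp1r15a (1.32), 3 of 33 members (9.09%) beside 4.12% of all genes. No member had an adjusted p under 0.05 in any of the 16 alternatives.

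Infliximab-treated hTNFtg SFs and WT SFs could be compared most closely, since both groups were tight. Of the members, 26 of 33 had a 95% interval that lay wholly between -1 and 1 on the log2 scale (78.8%, beside 50.7% of genes with a mean of at least 10). In both comparisons with untreated hTNFtg SFs it was 12 of 33 (36.4%), beside 21.2% of genes against WT and 28.2% against infliximab. For these members a 2-fold difference lay outside the interval, and for the rest it did not. Here limma called 0 of 33 by the rule (6.81% of 28243 genes, 3.86% as higher and 2.95% as lower) and 0 by adjusted p (0.74%), with 0.332 the smallest adjusted p. At an unadjusted P under 0.05 it counted 2, Hsp90b1 and Sdf2l1 (11.9% of genes). edgeR counted 3 at that level, Hsp90b1, Sesn2 and Syvn1 (13.1% of genes), and limma with array quality weights counted 5, Atf6, Ern1, Hsp90b1, Pdia6 and Syvn1 (15.5% of genes). Both called 0 members by the rule, where edgeR called 7.25% and the weighted fit 8.28% of genes. By adjusted p both called 0 members, beside 1322 and 378 genes in turn. The median log2 fold change was -0.03, beside -0.02 over genes with a mean of at least 10.

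Hsp90b1 was lower in every infliximab-treated than in every WT library, with a log2 fold change of -0.53 (SE 0.20, 95% interval -0.98 to -0.07, limma adjusted p = 0.332). With 1789 ± 164 normalized counts (SD, n = 3) after infliximab, 2760 ± 716 in untreated hTNFtg and 2604 ± 479 in WT SFs, it was the 1 of 32 members (3.12%, beside 1.19% of genes with a mean of at least 10) whose infliximab values lay below all 6 other libraries. Sec61b, the beta subunit of the translocon channel, was also lower without overlap, at -0.36 (SE 0.19, limma adjusted p = 0.497). For these 2 of 33 the background is 7.07% of genes, for the 1 member that was higher it is 7.14%, and in either direction 14.2%. That member was Sdf2l1 (chr16:17130138-17132383), which works with Dnajb11 to keep unfolded chains soluble. It stood at 39, 54 and 41 in WT, 37, 40 and 69 in untreated hTNFtg and 80, 58 and 63 in infliximab-treated SFs, and is shown because of these values. Its log2 fold change was 0.58 (SE 0.26, limma adjusted p = 0.416). The value of 37 in hTNFtg replicate 1, a library outside this comparison, is 6 reads. The count without overlap was 14 (27.1% of genes) without WT replicate 1, 5 (19.5%) without WT replicate 3, 6 (20.4%) without infliximab replicate 1 and 8 (20.9%) without infliximab replicate 2. Without infliximab replicate 3, the library with hepatocyte transcripts, it was 6 (20.5%).

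By role, medians in this comparison were -0.03 for lumen chaperones, -0.09 for lectin chaperones and PDIs, 0.18 for sensors and factors, 0.01 for the PERK-ATF4-CHOP arm and -0.06 for ERAD and translocon genes without Derl3. With single libraries left out they stayed between -0.19 and 0.28, the lowest (without WT replicate 3) and the highest (without infliximab replicate 1) both in the PERK-ATF4-CHOP arm. Hspa5 was at -0.17 (SE 0.29, 95% interval -0.82 to 0.47) and P4hb at -0.07 (SE 0.20), which quantile normalization turned to 0.18 and 0.12, and Sel1l at -0.09 (SE 0.20). Xbp1 was at 0.11 (SE 0.20), Atf4 at -0.32 (SE 0.22) and the Ddit3 locus at -0.32 (SE 0.19). For all of these the interval excluded a 2-fold difference. The lowest log2 fold change was that of Pdia4, -0.72 (SE 0.59), and the highest that of Ern1, 0.61 (SE 0.33), both low genes, which ranged from -1.29 to -0.33 and from 0.36 to 0.83 with single libraries left out.

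**Figure D5:**
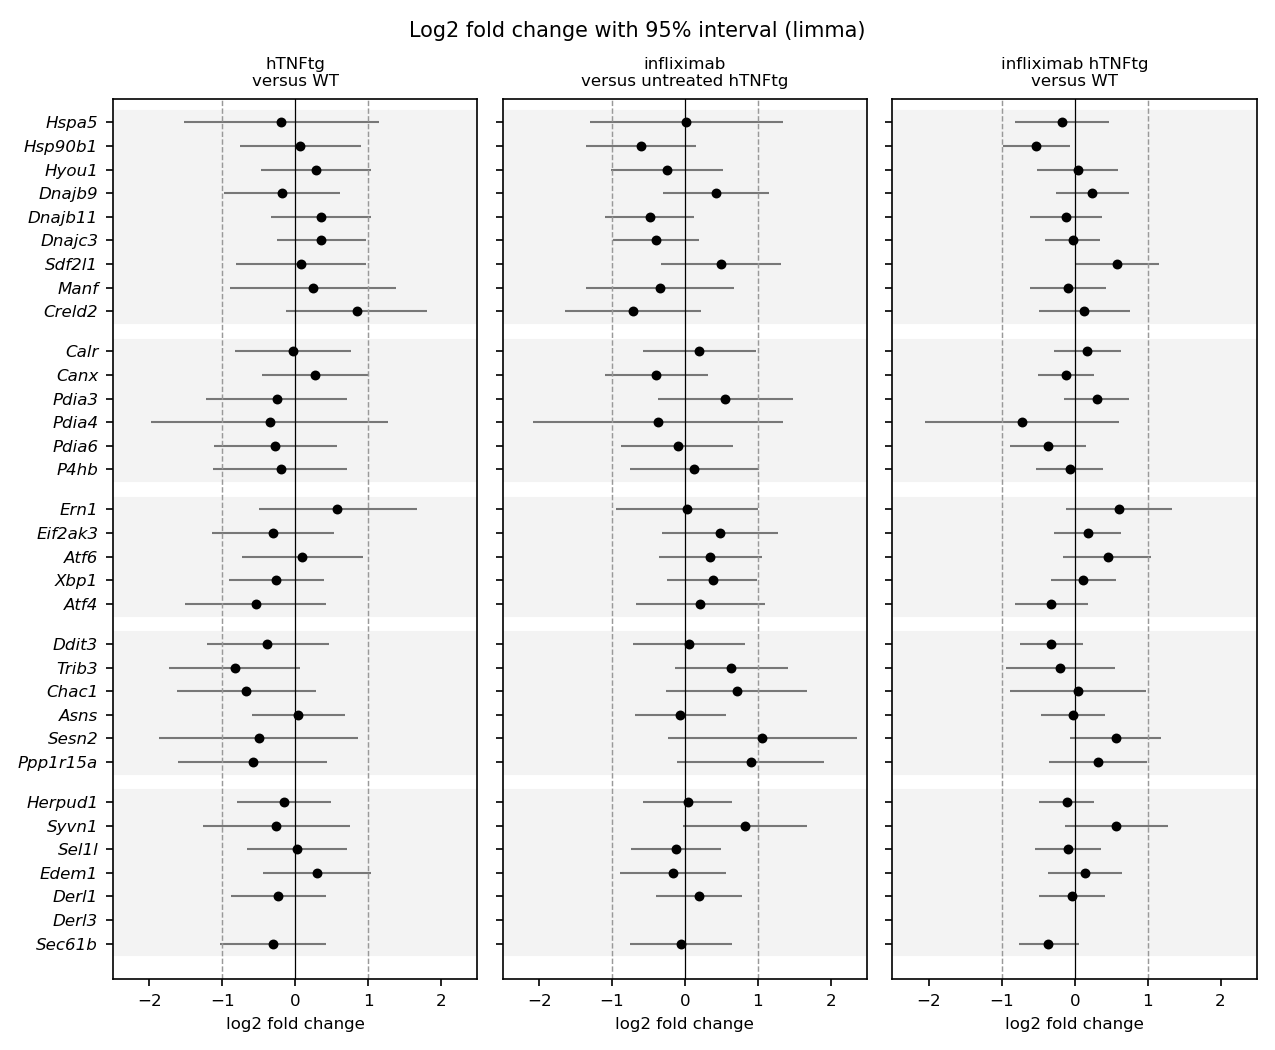
Log2 fold change (points) with limma's 95% interval (lines) for 32 members, with 1 panel for each of the 3 comparisons and dashed lines at -1 and 1. Intervals are narrowest for infliximab-treated SFs against WT, where 26 lie between the dashed lines, and Derl3 has no point.

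Members with and without the ERSE in their promoter had overlapping ranges of log2 fold change. In hTNFtg versus WT SFs the 8 ERSE members above the floor had a median log2 fold change of 0.02 (-0.27 to 0.85) and the 20 matched members without it -0.26 (-0.83 to 0.58), which were -0.04 and -0.01 without hTNFtg replicate 1. In infliximab-treated versus untreated hTNFtg SFs the medians were -0.25 and 0.17, and -0.11 and 0.37 without hTNFtg replicate 3. In infliximab-treated hTNFtg versus WT SFs they were -0.07 and 0.01. Their order turned without WT replicate 3 (-0.07 and -0.11), infliximab replicate 2 (-0.08 and -0.11) or infliximab replicate 3 (-0.02 and -0.04). These medians are descriptions with no test. They include loci with shared reads, Pdia6 and Syvn1 among members with the ERSE and Ddit3 and Ppp1r15a among those without it.

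Beyond the 33 members, 134 further genes of oxidative folding, the ATF4 program, ERAD, the translocon, N-glycosylation, stress sensing and collagen folding were followed. In hTNFtg versus WT SFs limma called 4 of 134 (6.39% of all genes), with 0 at an adjusted p under 0.05. Shmt2, a mitochondrial serine enzyme, and Ero1lb, an ER oxidase, were higher, at 1.03 (SE 0.30) and 2.25 (SE 0.82), and Aldh1l2, a mitochondrial folate enzyme, and Fkbp9, an ER prolyl isomerase, were lower, at -1.13 (SE 0.31) and -1.02 (SE 0.35), with limma adjusted p values of 0.24, 0.433, 0.21 and 0.376. Without hTNFtg replicate 1 the count was 0 (8.34% of all genes), and without hTNFtg replicate 3 it was 10 (8.91%). The 17 collagen chaperones and modifying enzymes, 12 of them below 0, had a median log2 fold change of -0.39 (-0.15 without hTNFtg replicate 1) with 0 called. In infliximab-treated versus untreated SFs 3 of 134 were called (2.43% of all genes), all higher, namely Ddit4 at 1.14 (SE 0.32), Stc2 at 1.11 (SE 0.50) and Atf6b, the paralog of Atf6, at 1.09 (SE 0.38). All had a limma adjusted p of 0.803, the 25 ATF4 targets and amino acid genes had 18 above 0 (14 without hTNFtg replicate 1) and 2 called, and the total was 7 without hTNFtg replicate 2 (3.94% of all genes), 5 without hTNFtg replicate 3 (4.12%) and 1 without infliximab replicate 2 (1.5%).

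In infliximab-treated hTNFtg versus WT SFs 4 of 134 were called (6.81% of all genes), Shmt2, Ero1lb and Ddit4 higher and Prdx4, an ER peroxiredoxin, lower at -1.12 (SE 0.28). The count was 2 without WT replicate 3 (6.19% of all genes). Shmt2 was the 1 gene of the 134 with an adjusted p under 0.05, at a log2 fold change of 1.31 (SE 0.21, limma adjusted p = 0.0306). This adjusted p was under 0.05 in 8 of 16 alternatives. It was 0.407 with the replicate block, 0.0657 with all 9 libraries in one fit and 0.107 to 0.343 when any 1 of the 6 libraries was left out, the lowest without WT replicate 1 and the highest without infliximab replicate 1, while the log2 fold change stayed between 1.14 and 1.5 and met the calling rule in all 16. It stood at 216, 339 and 239 in WT, 635, 515 and 456 in hTNFtg and 654, 569 and 716 in infliximab-treated SFs, so that both transgenic groups lay above WT. However, Shmt2 overlaps Ndufa4l2 on the opposite strand over 30 bases (chr10:127517123-127517152), whose values were 0.991 to 1.00 times those of Shmt2, and which of the pair the reads came from cannot be told apart. A near-constant ratio to an overlapping gene was found for 12 of the 134, for 10 of them with a gene on the opposite strand and for 2 with one on the same strand. Sec62, a translocon and ER-phagy gene that the study followed further, stood at 545, 764 and 1080 in WT, 654, 567 and 988 in hTNFtg and 577, 524 and 633 in infliximab-treated SFs. Its log2 fold changes were -0.10 (SE 0.35), -0.31 (SE 0.30) and -0.41 (SE 0.25) in the 3 comparisons, none past the test.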

How the data were processed

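The authors mapped reads to mm10 with TopHat2 and then Bowtie2, counted them per gene with GenomicRanges and ran DESeq through metaseqR, with versions not given in the sources used here. The deposited value of a gene is a score, a count that the authors had scaled by 1 factor per library and rounded. In hTNFtg replicate 1 the deposited values are a signal from which whole reads were recovered, since 99.58% were given back by whole reads times 6.228, to the nearest whole number. In the other libraries reads are approximate. The 24 other per-sample columns (log2 and further normalized forms) and the authors' own fold changes and P values were not used. The untreated hTNFtg values were identical in both tables for 49548 of 49548 genes and used once.

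Groups of 3 were compared with limma 3.58.1 (eBayes with trend) in R 4.3.3 on log2(normalized count + 1), a scale that understates changes of low genes, leaving out genes at 0 in all 6 libraries compared. Adjusted p values are Benjamini-Hochberg over all genes tested, and intervals are 95%. Because the values are not raw counts, edgeR 4.0.16 on approximate reads was an alternative. The others were pseudocounts of 0.5 and 5, a filter at a mean of 10, median-ratio and quantile scaling, robust eBayes, array quality weights, a replicate block, all 9 libraries in one fit, and each library left out. The scripts were tested on simulated data. Members and lists were chosen with earlier results of these data known. Every library is given for Hspa5, Hsp90b1, Ddit3, Atf4, Xbp1, the most abundant member of each role and any member called with all libraries. Creld2, Dnajc3, Sdf2l1, Manf, Sesn2, Trib3 and Syvn1 were added after their values were seen. Other pathway genes are named where called, besides Sec62. Where a symbol stood on 2 rows (Itgam, Mia2), the copy with the higher mean was used. Counting intervals are exact Poisson intervals. Protein sequences were not used here.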

Additional observations from a re-analysis of the deposited data

How the results depend on the processing

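Leaving out single libraries moved the counts of called members from 0 to between 0 and 2 in hTNFtg versus WT, between 0 and 3 in infliximab-treated versus untreated hTNFtg, and left 0 in infliximab-treated hTNFtg versus WT SFs. Other pathway genes called ranged from 0 to 10, 1 to 7 and 2 to 4 in turn, and the share of all genes called from 5.02% to 8.91%, 1.5% to 4.99% and 6.19% to 9.11%. Members without overlap, a count added after seeing the data, ranged from 2 to 10, 3 to 10 and 4 to 14. In the same fits 15.3% to 21.1%, 11.5% to 18% and 19.5% to 27.1% of genes did not overlap. The median log2 fold change of the 33 members ranged from -0.25 to -0.02, from -0.02 to 0.16 and from -0.1 to 0.06 in the same order (-0.21 to -0.01, -0.02 to 0.16 and -0.07 to 0.07 without Derl3), and it was -0.08 and 0.11 by edgeR in the first and second. No other alternative called a member, where 4.74% to 12.4%, 1.23% to 7.51% and 3.75% to 8.28% of all genes were called. Over the named members 7 single-gene results met the rule with a library left out and none reversed a call, while uncalled values near 0 changed sign with quantile normalization, array quality weights or edgeR. Over all genes the count at an adjusted p under 0.05 was 137, 0 and 209 with limma, 922, 165 and 1322 with edgeR on approximate reads, 461, 3 and 1182 with robust eBayes, 1004, 65 and 378 with array quality weights and 0, 0 and 0 with the replicate block. The cause was not tested. Leaving out the 4 members with shared reads, also added later, gave medians of -0.15, 0.04 and -0.03 and no call.

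The replicate numbers were not taken as pairing. Deviations of like-numbered libraries correlated between -0.13 and 0.35, 0.07 and 0.26, and -0.14 and 0.11, and 4, 5 and 2 of 6 libraries correlated best with their own number. With the replicate block 0, 0 and 0 members and 3, 2 and 3 other pathway genes were called, beside 4, 3 and 4 without it. Of all genes 5.82%, 2.12% and 6.01% were called with the block, beside 6.39%, 2.43% and 6.81% without it. Depth limits hTNFtg replicate 1, where 3 reads are 18.7 normalized counts, and 27 of 33 members had at least 10 reads in every library.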
